A study of Mus musculus with 10 samples.

Results

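Kit encodes the receptor tyrosine kinase for stem cell factor (SCF). On mouse chromosome 5 it is annotated at chr5:75574916-75656722 on the + strand of mm10 (ENSMUSG00000005672.12), and the Kit locus was taken as that span with 200 kb upstream and 100 kb downstream. The members were the peak summits of 10 ATAC-seq lists that fall in this window of 381.8 kb. There were 63 such summits of 146939 in all, and they merged into 16 of 28981 open regions. A region is a stretch in which the 501 bp windows around the summits of any lists overlap, and it is named here by the distance of its median summit from the first annotated base of Kit. The selection used position alone and no score or time point. The outermost regions inside the window lay at −197.5 kb and +162.3 kb, and the nearest ones outside it lay at −211.0 kb, in 1 library, and at +187.3 kb, in 5 libraries. Kit is the only protein-coding gene in the window, which ends before its neighbours Pdgfra and Kdr, genes of the same receptor superfamily.

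The lists came from G1E-ER4 cells, a clonal mouse line of erythroid precursors that lacks functional Gata1 and constantly carries GATA1 fused to an estrogen receptor domain. ATAC-seq, in which the Tn5 transposase cuts open chromatin and leaves sequencing adaptors there, was run on about 50000 cells per library. Cells were collected untreated (0 h) or 2, 6, 12 and 24 h into exposure to 1e-07 M β-estradiol, which activates the fusion protein, and each time had 2 libraries. All 5 groups, 0 h included, carried the same Gata1 loss and the same transgene, and the medium held SCF at 50 ng/ml, the ligand of KIT itself, with erythropoietin at 2 U/ml.

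SCF makes KIT dimerize and signal through PI3 kinase, RAS and SRC family kinases, which sustains the growth and survival of stem cells, mast cells and early erythroid precursors. Kit is expressed in immature erythroid cells and is shut down as they mature. In that step GATA1 replaces GATA2 at sites in and around the gene, a textbook example of a GATA switch in which the activating factor gives way to a repressing one. Open regions in introns and upstream of a gene are where such factors usually bind.

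The lists held 10698 to 19859 peaks, and their scores are −log10 of the q-value that the peak caller gave each peak in its own library. Neither the read total of a library nor its coverage of a region is given, so depth is unknown and an unlisted region was only not called. In bulk libraries such as these, fewer cells with an open region and less opening per cell cannot be told apart. The labels do not say whether the libraries of a time point came from separate cultures, so p-values measure only the spread between these libraries, which may be technical. Scores are not scaled between libraries and are given here as the percentile within the list, in which 100 is the highest peak of that list. Among promoters of erythroid marker genes, those of Klf1, Epor and Tfrc were listed in all 10 libraries, and those of Alas2, Hba-a1, Hbb-bt and Slc4a1 in none. The 2 globin genes have near-identical copies, and the authors kept only reads with a single genome position, whose part in this was not tested. In any 1 library at most 1 of 5 mast cell, 1 of 4 myeloid and 1 of 2 stromal marker promoters was listed, and none of the 3 megakaryocyte or 3 lymphoid ones.

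The sequences of 5 Kit regions on which the results turn are given from the + strand of mm10. For the promoter the 300 bases before the first annotated start are shown (chr5:75574616-75574915), with capitals marking the 33 bases that are covered by the guide RNAs the study designed for this promoter.
Kit promoter: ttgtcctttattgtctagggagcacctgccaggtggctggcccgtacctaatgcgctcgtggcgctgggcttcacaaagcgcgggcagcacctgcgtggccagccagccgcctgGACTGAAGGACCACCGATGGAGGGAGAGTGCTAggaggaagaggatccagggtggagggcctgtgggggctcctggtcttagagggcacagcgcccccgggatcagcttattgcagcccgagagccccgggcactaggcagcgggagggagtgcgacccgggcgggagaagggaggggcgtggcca
Those guides, 3 of 20 bases each, matched 1 place in the genome each. The first lies at chr5:75574730-75574749 and the second at chr5:75574731-75574750 on the + strand, and the third at chr5:75574743-75574762 on the − strand, so that together they span the bases from 186 to 154 before the start. Capitals mark the PAM, the bases next to the target that Cas9 needs.
Guide 1: gactgaaggaccaccgatggAGG
Guide 2: actgaaggaccaccgatggaGGG
Guide 3: tagcactctccctccatcggTGG
For the other 4 regions the 300 bases centred on the median summit are shown, and capitals mark each match to a GATA consensus, AGATAA or TGATAA on either strand (TTATCT as printed, where on the − strand). The +5.0 kb region (chr5:75579814-75580113, intron 1) was in both 0 h lists and in neither 24 h list.
Region +5.0 kb: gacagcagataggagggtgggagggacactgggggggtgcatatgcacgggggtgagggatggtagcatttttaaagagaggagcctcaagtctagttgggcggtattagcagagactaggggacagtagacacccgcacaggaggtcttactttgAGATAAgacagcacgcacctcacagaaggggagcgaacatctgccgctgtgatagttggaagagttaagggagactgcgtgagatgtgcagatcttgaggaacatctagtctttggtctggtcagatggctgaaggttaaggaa
The +49.5 kb region (chr5:75624237-75624536, intron 7) was in both 24 h lists and in neither 0 h list.
Region +49.5 kb: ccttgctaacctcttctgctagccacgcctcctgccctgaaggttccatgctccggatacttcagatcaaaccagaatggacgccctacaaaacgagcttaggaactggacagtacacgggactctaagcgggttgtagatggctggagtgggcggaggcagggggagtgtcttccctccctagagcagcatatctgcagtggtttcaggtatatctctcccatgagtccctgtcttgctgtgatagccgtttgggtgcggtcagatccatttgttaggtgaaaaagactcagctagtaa
The −114.2 kb region (chr5:75460516-75460815, intergenic) was the only one of the 16 listed in all 10 libraries.
Region −114.2 kb: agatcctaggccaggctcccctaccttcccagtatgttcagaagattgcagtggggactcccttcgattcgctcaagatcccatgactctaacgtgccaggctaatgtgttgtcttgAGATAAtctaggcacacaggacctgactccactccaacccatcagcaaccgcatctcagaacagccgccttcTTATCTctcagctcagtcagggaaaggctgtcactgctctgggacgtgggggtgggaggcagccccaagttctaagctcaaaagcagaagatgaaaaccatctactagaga
The +58.6 kb region (chr5:75633362-75633661, intron 7) was added after its values were seen, because it was in both lists at 2 h and at 12 h and in none at 0 and 24 h.
Region +58.6 kb: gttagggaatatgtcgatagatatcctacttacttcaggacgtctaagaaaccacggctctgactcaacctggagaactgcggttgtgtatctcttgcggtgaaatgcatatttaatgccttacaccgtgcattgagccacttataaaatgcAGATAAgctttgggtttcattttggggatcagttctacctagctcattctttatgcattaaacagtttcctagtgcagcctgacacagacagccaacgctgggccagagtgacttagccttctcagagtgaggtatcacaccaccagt

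The Kit locus was open at a few places in every library, and few of those places were shared by all lists. Of the 16 regions, 1 was in all 10 libraries (6.25%, against 21.5% of all 28981 regions) and 6 were in a single library (37.5%, against 28.9%). The promoter and the −114.2 kb region were the only ones in more than 6 lists.

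**Figure D1:**
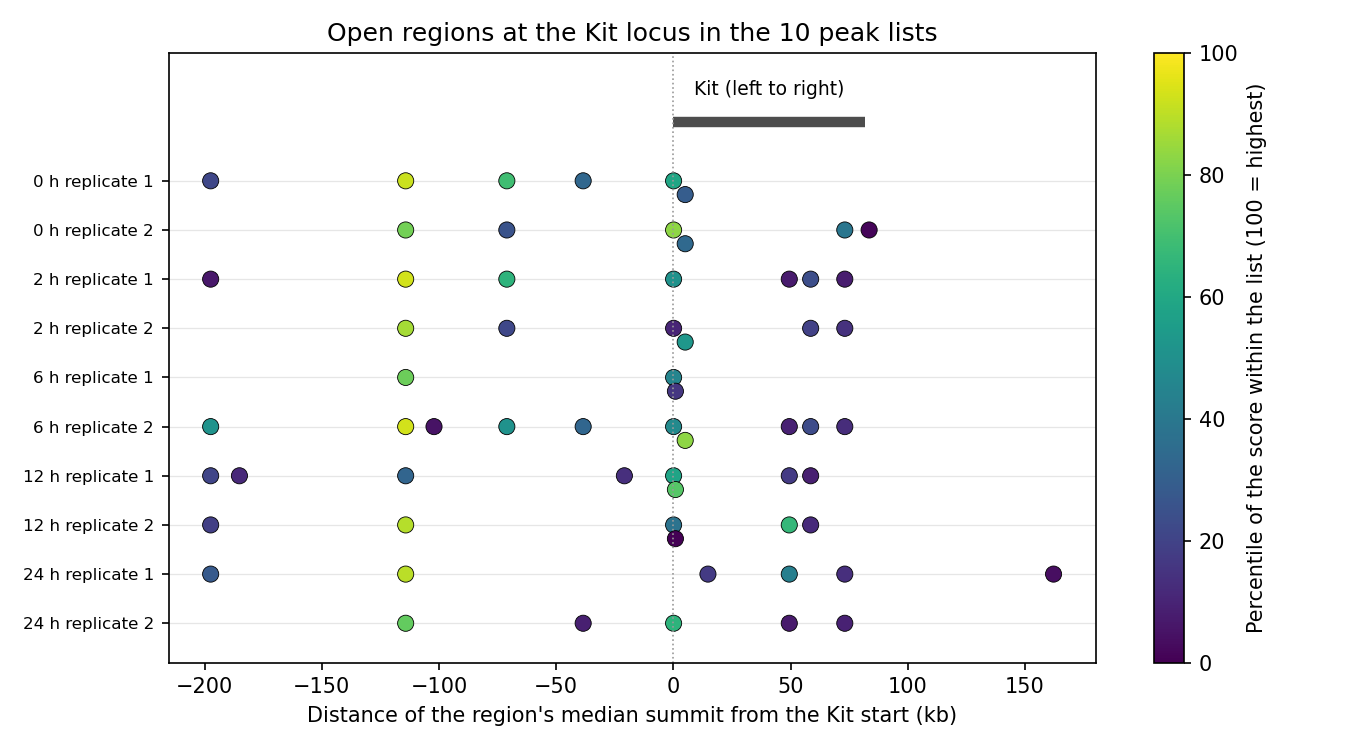
Median position of each Kit region (x axis, kb from the Kit start, + strand left to right) in each of the 10 peak lists (rows), coloured by the percentile of its score within the list. The grey bar is the gene, and the points at +0.9 and +5.0 kb are drawn slightly lower so that they do not hide the promoter. The −114.2 kb column is filled in every row, and the −71.1 kb column only in rows of 0, 2 and 6 h.

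The promoter, the region at which transcription of Kit begins, was listed in 9 of 10 libraries and absent only from 24 h replicate 1. It spans chr5:75574581-75575298, and its median summit lies 99 bases downstream of the start, in the untranslated part of exon 1. In replicates 1 and 2 its percentile was 59.0 and 83.0 before treatment, 51.0 and 10.5 after 2 h, 45.6 and 47.4 after 6 h, and 58.5 and 37.9 after 12 h. At 24 h replicate 1 did not list it and replicate 2 had it at 64.7. Both 0 h values lay above all 6 values of 2, 6 and 12 h, and the listed 24 h value lay between the 2 values of 0 h. With an unlisted region set to percentile 0, the mean was 71.0 ± 16.9 before treatment and 32.4 ± 45.8 after 24 h (SD, n = 2 each). The difference of −38.6 (SE 26.9) did not pass limma's test (adjusted p = 0.991 over 20613 regions). It was −71.0 without 24 h replicate 2 and −6.26 without 24 h replicate 1, so that the 24 h pair set its size. Spearman's rho between hours and the promoter's percentile was −0.345 (exact permutation p = 0.341, adjusted p = 0.998). Pearson's r was −0.314 (permutation p = 0.382), with −0.850 in replicate 1 and 0.161 in replicate 2. Within the promoter the summit itself was not at 1 place. It lay 52 to 132 bases downstream of the start in 6 lists, which included both of 0 h and both of 2 h. In the other 3, both of 6 h and replicate 2 of 12 h, it lay upstream, at positions −43, −85 and −75 relative to the start. The guide targets lie upstream of the start and of all these summits, but inside the promoter region as merged here.

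Upstream of the gene, the −114.2 kb region (chr5:75460360-75460939) ranked high in nearly every list. Its percentile was 91.8 and 78.7 before treatment, 93.2 and 86.5 after 2 h, 77.5 and 93.1 after 6 h, 32.1 and 88.9 after 12 h, and 89.7 and 76.1 after 24 h. All of these values but that of 12 h replicate 1 were at 76.1 or above, so the time points overlapped. The mean was 85.2 ± 9.29 before treatment and 82.9 ± 9.56 after 24 h (SD, n = 2 each), a difference of −2.33 (SE 14.9, limma, adjusted p = 1). The sign turned without 0 h replicate 1 (4.24) and without 24 h replicate 2 (4.43). Its scores ran from 4.47 in 12 h replicate 1 to 27.5 in 6 h replicate 2, the largest list.

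The intergenic −71.1 kb region was listed early in the time course and not late. Its percentile was 69.4 and 25.6 before treatment, 64.7 and 21.8 after 2 h, and 50.7 in replicate 2 of 6 h. Replicate 1 of 6 h and all 4 libraries of 12 and 24 h did not list it, and in those 5 lists the nearest summit lay 32.5 to 43.2 kb away. It ranked 4669 of 15258 and 8684 of 11698 peaks at 0 h, with scores of 8.93 and 4.61 beside list medians of 6.48 and 6.73. Of regions in all 4 lists of 0 and 2 h, a pattern chosen after the values were seen, 1.30% (108 of 8293) were in none of the 4 lists of 12 and 24 h. Of the 3 Kit regions in all 4 early lists, 1 was, this one. The mean percentile was 47.5 ± 31.0 (SD, n = 2) before treatment and 0 at 24 h, a difference of −47.5 (SE 25.6) that did not pass limma's test (adjusted p = 0.991). It was −25.6 without 0 h replicate 1 and −69.4 without 0 h replicate 2. Spearman's rho between hours and its percentile over the 10 libraries was −0.814, with an exact permutation p of 0.00847 that did not hold after adjustment over all regions (adjusted p = 0.768). Pearson's r was −0.671 (permutation p = 0.0329), and without both 24 h libraries it was −0.683 (permutation p = 0.0661), with −0.740 in replicate 1 and −0.634 in replicate 2.

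A further intergenic region at −197.5 kb (chr5:75377151-75377758) was in 6 libraries, at percentiles from 6.62 to 51.3. It was in 1 library each at 0, 2, 6 and 24 h and in both at 12 h. Regions at −185.2 kb (in the lincRNA gene Gm42800), −102.2 kb and −20.9 kb were each in a single library, and 1 at −38.5 kb was in 3.

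Inside the gene, intron 1 held the +5.0 kb region (chr5:75579649-75580303), which like the −71.1 kb region had no peak at 12 and 24 h. Its percentile was 29.0 and 33.8 at 0 h, and it was listed in replicate 2 alone at 2 h (53.0) and at 6 h (83.0). The 6 lists without it had their nearest summit 4.16 to 9.71 kb away. Its mean was 31.4 ± 3.45 (SD, n = 2) before treatment and 0 at 24 h, a difference of −31.4 (limma, SE 27.2, adjusted p = 0.997). In the trend over hours rho was −0.596 (exact permutation p = 0.0762, adjusted p = 0.968) and Pearson's r was −0.477 (permutation p = 0.146), or −0.366 without both 24 h libraries (permutation p = 0.355). At 0 h it ranked 10839 of 15258 and 7739 of 11698, and with every list reduced to its 10698 highest peaks it no longer counted as lost, since replicate 1 of 0 h then did not hold it.

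Also in intron 1, the +0.9 kb region (chr5:75575484-75576053) was listed in both libraries of 12 h and in replicate 1 of 6 h. Its percentile was 16.0 in the latter and 73.6 and 0.325 at 12 h. The lowest of these was rank 13786 of 13830, at the edge of what was called. With summits extended by 500 bp on each side instead of 250 bp, this region merged with the promoter. Whether it counts as a separate region therefore depends on that setting.

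Introns 7 and 15 held 3 regions that were weak in most lists. The +49.5 kb region (chr5:75623995-75624726) was in neither 0 h list, in 1 list each at 2 h (replicate 1, percentile 7.17) and 6 h (replicate 2, 9.34), and in both later pairs. Its percentile there was 17.2 and 66.7 after 12 h, then 42.6 and 6.72 after 24 h. The lowest later percentile, 6.72 in replicate 2 of 24 h, was below both early ones. The region ranked 9977 of 10698 peaks in that list, the shortest. In the early lists it ranked 14951 of 16115 and 18003 of 19859, so it lay near the bottom of all of these. Of regions in all 4 lists of 12 and 24 h, again a pattern chosen after the values were seen, 2.22% (168 of 7569) were in neither 0 h list, and at Kit 1 of 2 was, this one. Its mean was 0 before treatment and 24.7 ± 25.4 (SD, n = 2) at 24 h, which did not pass limma's test either (SE of the difference 19.1, adjusted p = 0.991). The difference was 6.72 without 24 h replicate 1 and 42.6 without its replicate 2. Over the 10 libraries rho with hours was 0.699 (exact permutation p = 0.0325, adjusted p = 0.860). Pearson's r was 0.515 (permutation p = 0.0967) and 0.737 without both 24 h libraries (permutation p = 0.00703), with 0.952 in replicate 1 and 0.265 in replicate 2.

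The +58.6 kb region (chr5:75633212-75633795) was in 5 lists, at percentiles of 23.6 and 19.3 at 2 h, 22.9 in replicate 2 of 6 h, and 8.87 and 12.0 at 12 h. No list of 0 or 24 h held it, so it was listed at intermediate times only, and never above percentile 23.6. Where listed, it ranked from 11509 to 15297 from the top, beyond the full length of the 24 h replicate 2 list (10698 peaks). Every one of these ranks but 11509 was also beyond the full length of the 0 h replicate 2 list (11698 peaks). The region's absence from either list may therefore reflect list length, which was not tested. The +73.2 kb region in intron 15 (chr5:75647539-75648477) was in 6 lists, at 39.2 in replicate 2 of 0 h and between 7.90 and 14.2 in both lists of 2 h, replicate 2 of 6 h and both lists of 24 h. The regions at +14.8, +83.5 and +162.3 kb were in a single library each, at percentiles of 1.54 to 17.4.

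**Figure D2:**
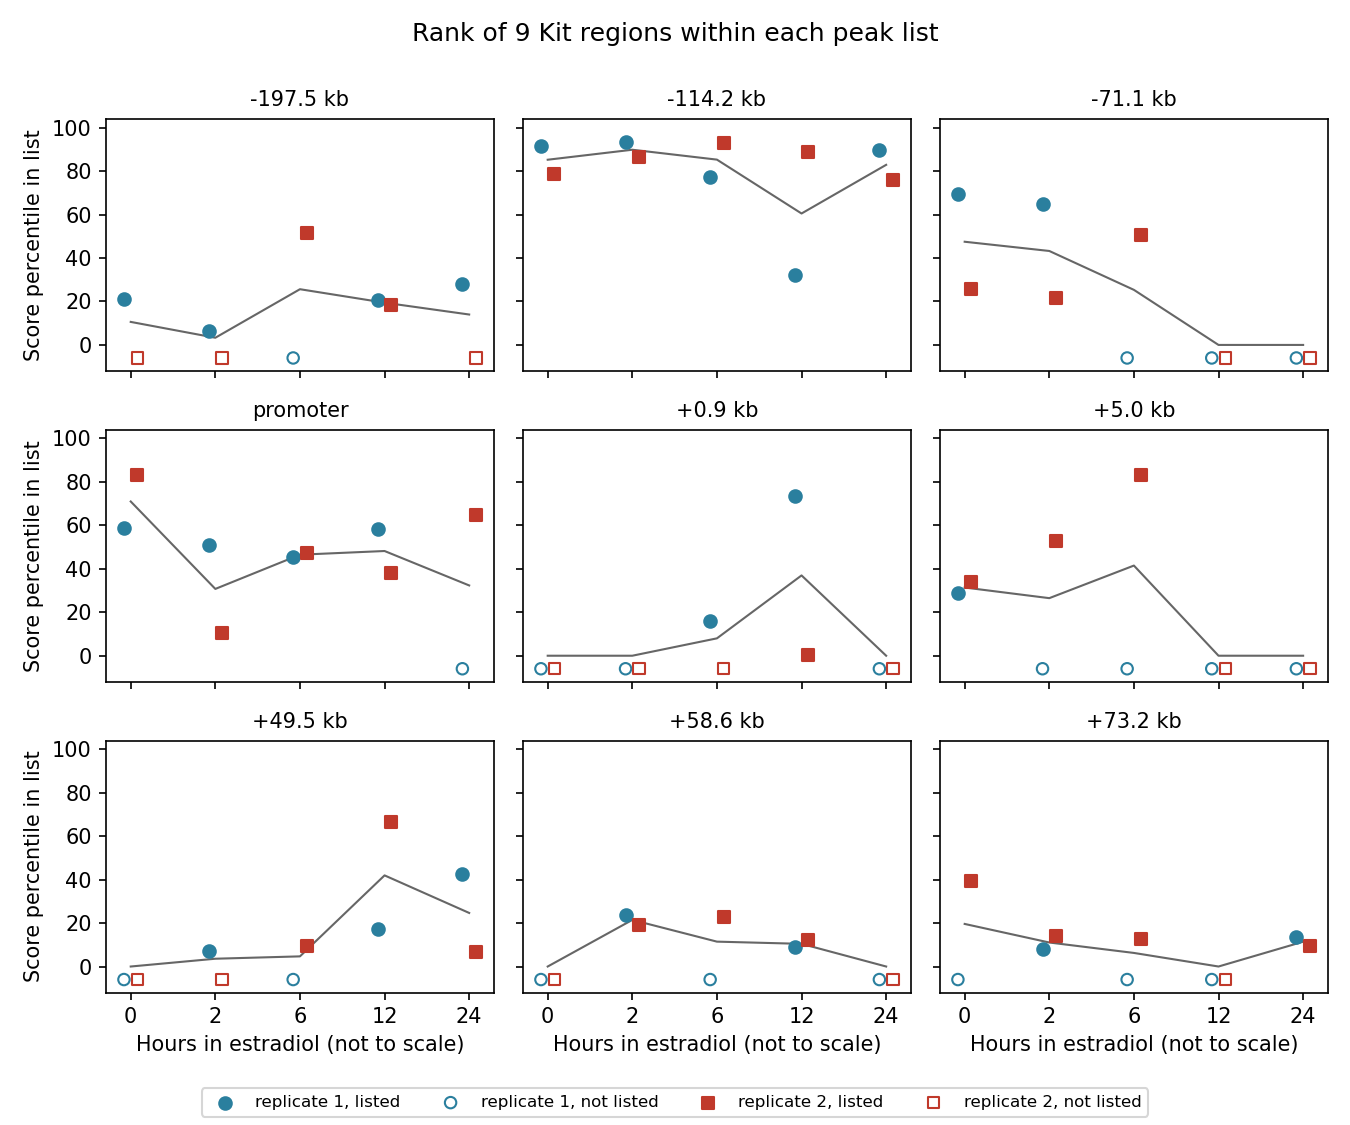
Percentile of the score within the list (y axis, 100 = highest) against hours in estradiol for the 9 Kit regions that were in at least 5 libraries or in both libraries of a time point. Filled symbols are listed libraries, open symbols below 0 are libraries that did not list the region, and the line is the mean of 2 libraries with unlisted ones at 0. At 12 and 24 h the −71.1 and +5.0 kb regions have open symbols only and the +49.5 kb region filled ones only.

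Whether estradiol changed which Kit regions were open was then examined against the 0 h pair, which all 4 comparisons share. A region was called lost when it was in both 0 h lists and in neither list of the later time, and gained in the opposite case. At 24 h 2 of the 4 Kit regions that could be lost were lost, those at −71.1 and +5.0 kb, against 10.4% of all such regions. The same 2 of 4 were lost at 12 h, against 5.60%, and none of 4 at 2 h or 6 h, where 3.42% and 2.26% of all such regions were. The 2 that were not lost at any time were the promoter and the −114.2 kb region.

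Gained regions lay inside the gene. At 2 h 1 of the 5 that could be gained was gained (+58.6 kb), against 7.12% of all such regions, and at 6 h none of 2, against 10.1%. At 12 h 3 of 6 were gained (+0.9, +49.5 and +58.6 kb), against 6.96%, and at 24 h 1 of 3 (+49.5 kb), against 5.65%. With summits extended by 500 bp on each side, where the +0.9 kb region is part of the promoter, 2 were gained at 12 h. The denominators are so small that 1 region moves each share widely, and single libraries decide them. At 2 h the lost count was 1 without either 0 h library or without 2 h replicate 2, and the gained count was 2 without 0 h replicate 2 or 2 h replicate 2. At 6 h the lost count was 1 without 0 h replicate 1 and 2 without 6 h replicate 2, and the gained count was 3 without 6 h replicate 1 and 1 without its replicate 2. Without 0 h replicate 1 the lost count at 12 h was 4, and without 12 h replicate 2 the gained count there was 5. Without 24 h replicate 2 the gained count at 24 h was 3, and the promoter then joined the lost regions, which were 3. Without 0 h replicate 2 the gained count at 24 h was 2. With lists of equal size 1 region, at −71.1 kb, was lost at 12 and at 24 h, none was gained at 2 or 12 h, and 1 was still gained at 24 h.

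The fit on percentiles gave no call at all. limma called 0% of 20613 regions at each of 2, 6, 12 and 24 h, with 715, 961, 702 and 958 regions at an unadjusted p under 0.05. The median of all regions moved by 1.51, 5.96, 0.450 and 0 percentile points in these comparisons. All 10 Kit regions in at least 2 libraries were tested, and none of them was under 0.05 unadjusted at any time. The exact permutation test of the trend over hours likewise called 0 regions, with 1100 at an unadjusted p under 0.05 and a smallest adjusted p of 0.260. The −71.1 and +49.5 kb regions were among the 1100. Apart from these and the +5.0 kb region, rho at the tested Kit regions lay between −0.345 and 0.303, with exact permutation p of 0.341 or more. The Pearson p-values given for single regions were not adjusted over regions.

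The number of Kit regions per list ran from 3 to 10. It was 6 in both lists before treatment, 7 and 6 after 2 h, 3 and 10 after 6 h, 8 and 6 after 12 h, and 6 and 5 after 24 h. The pair of 6 h stood apart, with the fewest regions in replicate 1 and the most in replicate 2, the longest list. The means were 6.00 ± 0, 6.50 ± 0.707, 6.50 ± 4.95, 7.00 ± 1.41 and 5.50 ± 0.707 (SD, n = 2). They differed from 0 h by 0.5, 0.5, 1.0 and −0.5 regions, with an exact permutation p of 1 each (two-sided), and the smallest p that 2 against 2 libraries allow is 1 in 3. The sign at 6 h turned without its replicate 2, to −3.0, and with lists of equal size the differences at 2, 6 and 12 h turned to −2.0, −1.0 and −1.5. No relation with hours passed a test over the 10 libraries, with a Pearson r of −0.123 (permutation p = 0.730, adjusted p = 0.934 over both measures) and a Spearman rho of −0.131 (permutation p = 0.743). When both 24 h libraries were left out, r was 0.175 (permutation p = 0.701). Without 24 h replicate 2 alone it was 0.030. Within replicate 1 r was 0.111 and within replicate 2 it was −0.351.

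**Figure D3:**
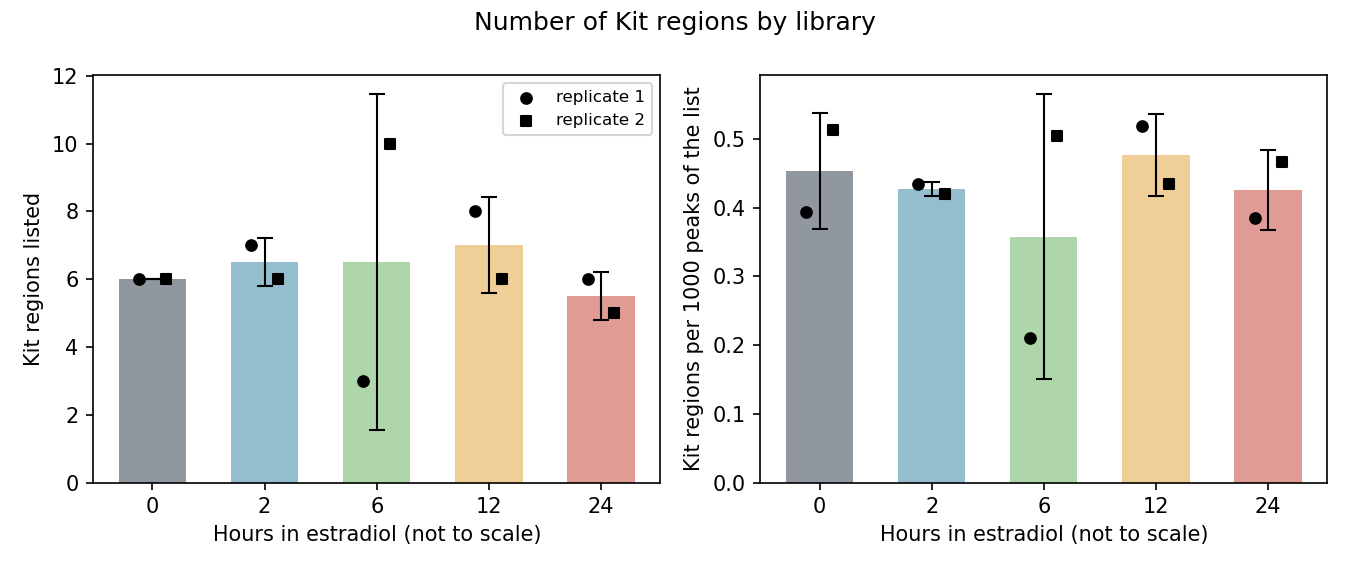
Number of Kit regions in each list (left) and the same number per 1000 peaks of the list (right) by hours in estradiol. Points are libraries, bars the mean and error bars the SD of 2 libraries, and the widest spread is at 6 h, with 3 and 10 regions.

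Per 1000 peaks of a list the number ran from 0.211 in replicate 1 of 6 h to 0.519 in replicate 1 of 12 h. On that scale r with hours was 0.030 (permutation p = 0.934) and rho −0.025 (permutation p = 0.972). The 2 lists of a time point shared 4 of 8 Kit regions at 0 h, 5 of 8 at 2 h, 2 of 11 at 6 h, 6 of 8 at 12 h and 3 of 8 at 24 h. In windows built the same way around 21938 protein-coding genes, which overlap each other, the median gene had 3.60 regions per library, and Kit, with 6.30, had more than 70.2% of them. Its change from 0 to 24 h, −0.5 regions, stood beside a median of 0 over these genes, of which 17.4% had a lower value and 12.7% the same one.

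What the Kit regions share in sequence was read from the 300 bases around each median summit, as letters on either strand. A GATA consensus was in 7 of the 16 (43.8%, against 34.3% of all 28981 regions), among them those at −197.5, −114.2, −38.5, −20.9, +5.0 and +58.6 kb. The +5.0 kb region, lost at 24 h, has 1 match, and the middle of the match lies 9 bp downstream of the median summit on the + strand. In the +58.6 kb region the distance is 5 bp. The summits of single lists spread over 154 bp at +5.0 kb and 83 bp at +58.6 kb, so these distances hold for the median only. Matches at −197.5, −114.2, −38.5 and −20.9 kb lay between −94 and 42 bp from the median summit. The +49.5 kb region, gained at 24 h, has no match, nor has the promoter. Over the whole series a GATA consensus was in 74.8% of the 1017 regions lost at 24 h and 45.1% of the 495 gained. It was in 15.9% of the 6234 regions in all 10 libraries. A match in a lost region and none in a gained one are thus common outcomes, not traits of Kit.

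**Figure D4:**
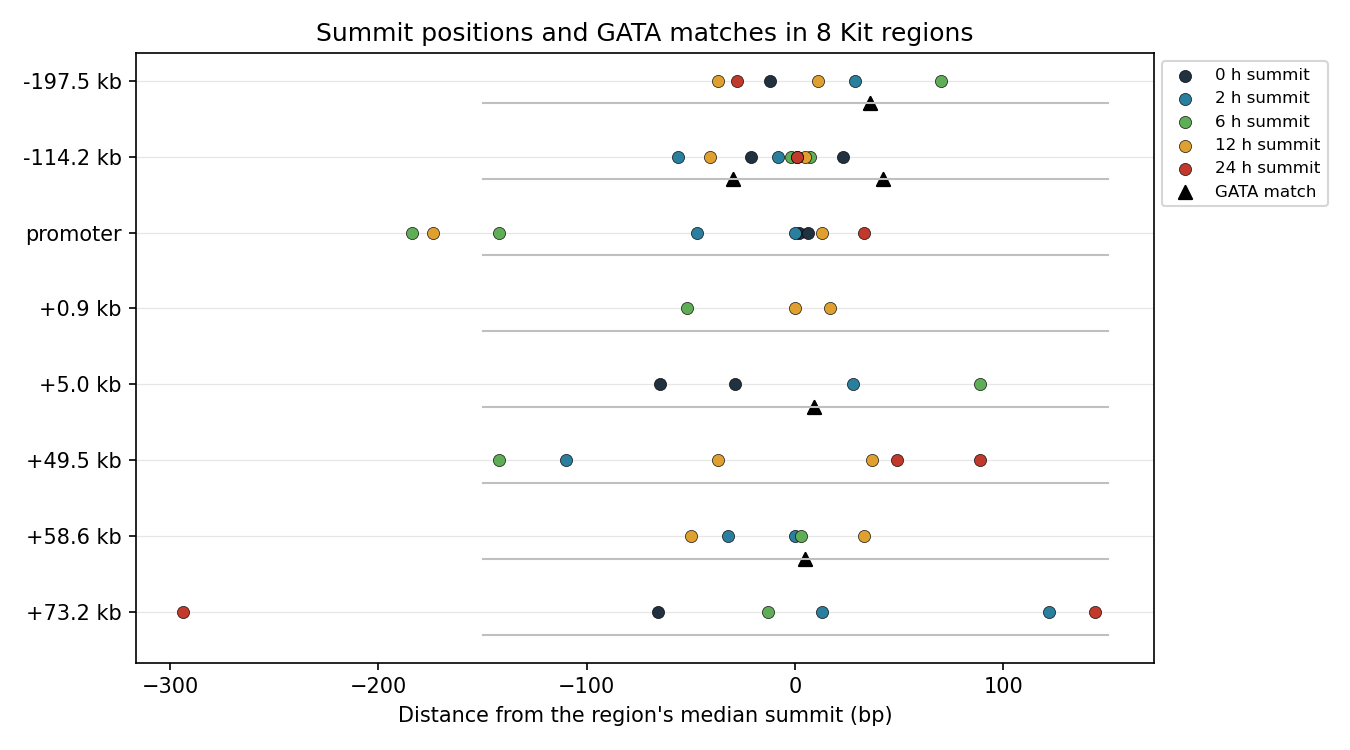
Summit position in each list (points, coloured by hours) and GATA matches (triangles, searched in the grey 300 bp window) relative to the median summit of 8 Kit regions (x axis, bp). The match lies within 10 bp of the median summit at +5.0 and +58.6 kb, and promoter summits fall in a downstream and an upstream cluster.

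The composite of a TAL1 and a GATA element (CTG, then 7 or 8 bases, then a GATA consensus, so that it always overlaps a GATA match) was in 2 of 16 (12.5%, against 6.49%), at −114.2 and −197.5 kb. TAL1 is the basic helix-loop-helix partner of GATA1 in erythroid cells. At −114.2 kb it reads CTGAGCTGAGAGATAA on the − strand (chr5:75460705-75460720). KLF letters (CCNCNCCC, bound by KLF1 and relatives) were in 9 regions (56.2%, against 44.4%). The promoter, whose 300 bases around the summit are 69.3% G and C, had 2 matches. The 7 matches at +73.2 kb all overlap within a single run of C. An AP-1 consensus (TGANTCA) was in 3 (18.8%, against 9.51%), RUNX (TGTGGT) in 3 (18.8%, against 22.1%), ETS (AGGAAG) in 2 (12.5%, against 37.4%) and CTCF (CCANNAGNNGGC) in none (against 12.3%). A match is a description of letters, and none of these shares was tested.

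Genes of SCF signalling, the neighbouring receptor genes and transcription factors known for Kit were followed at their promoters. They formed a list of 32 genes with Kit among them, called pathway genes below, so its shares are not of signalling genes alone. A promoter was counted as open in a library when a region lay within 1 kb of a protein-coding transcript start. In all 10 libraries 13 of the 32 were open (40.6%, against 27.0% of 21829 genes), 6 in none and 13 in some. At 24 h 1 promoter was lost, that of Myb, a transcription factor of proliferating progenitors, and 1 was gained, that of Inpp5d, which encodes the phosphatase SHIP1 that limits signalling downstream of PI3 kinase. These were 1 of 18 that could be lost and 1 of 16 that could be gained, where over all genes 1.61% of those that could were lost and 1.40% gained. Myb was open in both lists at 0 h, 1 at 2 h, both at 6 h and none at 12 and 24 h. Inpp5d was in no list at 0 h, in both at 2, 6 and 24 h and in 1 at 12 h, and with lists of equal size it was not gained. Without 0 h replicate 2, or without either library of 24 h, 2 promoters were lost, and without 24 h replicate 1 2 were gained. Kit itself was open in 9 libraries. The promoter of Kitl, which encodes SCF, was in no list, nor was that of Kdr, the neighbouring receptor gene downstream, while that of Pdgfra, the neighbour upstream, was in 1 list at 2 h and both at 6 h. Of the genes for adaptors of the receptor, Grb2, Shc1 and Sh2b3 were open in all 10 libraries and Gab2 in 2, and Sos1, which encodes the RAS exchange factor bound by GRB2, was open in 6. The phosphatase genes Ptpn6 and Ptpn11 and the ubiquitin ligase genes Cbl and Cblb, whose products mark the receptor for degradation, were open in all 10, and Inpp5d in 7. Among the transcription factors, the promoter of Gata2, the factor that precedes GATA1 at Kit, was in no list. The paper states that GATA2 is highly expressed in the undifferentiated cells, so an unlisted promoter need not be closed or silent. That of the endogenous Gata1 was in replicate 2 of 6 h alone, and that of Zfpm1, which encodes the GATA1 cofactor FOG1, was in all 10.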

How the data were processed

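The deposited lists give, per library, summit positions 1 base wide and a score, −log10 of the q-value that MACS2 assigned, called without a fragment model and with a lowest value of 1.30. The authors kept reads with 1 genome position on mm10. The submitters' processing notes name Bowtie 1.0.0 and Picard, whereas the methods name Bowtie2, and no shift for the Tn5 cut is stated, so summits may be off by some bases. Depth is unknown. The 4 or 5 mitochondrial peaks of each list were left out. Summits were extended by 250 bp on each side and merged over all lists. Scores were converted to percentiles within a list (100 highest, unlisted 0), and limma 3.58.1 (R 4.3.3, Python 3.11.15), tested on simulated data, was fitted to the 20613 regions in at least 2 libraries, with Benjamini-Hochberg adjustment at 0.05. Its main model was one mean per time point. Correlations used 100000 permutations (two-sided), and the trend test used all 113400 orders of the time labels.

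Replicate numbers came from the sample titles. Deviations from the group means correlated between same-numbered libraries at 0.113 to 0.256 (10 of 10 pairs of time points over 0.1), so the numbers were taken to pair the samples, as a finding from the data that the labels do not explain. A fit with that block was an alternative, as were list size, window size, score minimum, scale, locus width and leaving out each library. The main fit and the p-values of trends at single regions did not use that pairing. Annotation was GENCODE M21 (GRCm38.p6, mm10), and sequences were read from the matching genome. The promoter sequence ends before the first annotated start. Described in full were regions in at least 5 libraries or in both libraries of any time point, and the pathway genes whose promoter was lost or gained at 24 h, with Kitl, Pdgfra and Kdr. The other pathway genes named were picked after their values were seen. The members and lists were chosen with earlier results of these data known. The sequence of 1 region and the result of 1 marker gene are not reported here.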

Additional observations from a re-analysis of the deposited data

How the results depend on the processing

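Of 503 values under alternative settings for 29 results, 12 changed sign, 25 counts moved by over 1.5 times and 0 passed or lost a test threshold, where a difference that went to or from 0 is not counted as a change of sign. The lost, gained and motif counts had no test, and 2 against 2 libraries cannot reach the threshold. For those values the last number was fixed in advance and says nothing about stability. With lists of equal size (10698 peaks) no region was gained at 2 or 12 h (0 each), 1 was lost at 12 h and 1 at 24 h, 0 pathway promoters were gained, and the number of Kit regions differed from 0 h by −2.0 at 2 h, −1.0 at 6 h and −1.5 at 12 h, each the reverse of the sign in full lists. With 50 kb on each side of the gene 1 region was lost at 12 h and 1 at 24 h, and 4 held a GATA consensus, since the far upstream regions then fall outside. Per 1000 peaks the correlation with hours was 0.030.

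Leaving out 1 library in turn gave 0 to 1 regions lost and 1 to 2 gained at 2 h, 0 to 2 lost and 0 to 3 gained at 6 h, 2 to 4 lost and 3 to 5 gained at 12 h, and 2 to 3 lost and 1 to 3 gained at 24 h. The 6 h minus 0 h difference ran from −3.0 to 4.0, the correlation with hours from −0.249 to 0.030, and pathway promoters lost and gained at 24 h from 1 to 2 each.

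Among single regions, the 24 h minus 0 h difference changed sign at +73.2 kb, where it was 0.364 as log2 score over the list median and −27.8 (without 0 h replicate 1) to 11.4 (without 0 h replicate 2) percentile points. It also did at −114.2 kb, from −9.08 without 24 h replicate 1 to 4.43 without its replicate 2 (4.24 without 0 h replicate 1), and at −197.5 kb, from −10.6 without 24 h replicate 1 to 17.4 without its replicate 2 (−7.22 without 0 h replicate 2). The cause was not tested, and none of these passed a test.

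With the replicate number as a block, the correlation with hours was −0.123 (exact permutation p = 0.710) and limma again called 0 Kit regions at each time point, so the block changed no call. On the log2 scale limma called 1 region higher and 12 lower of 20613 at 24 h, none of them at Kit. Leaving out both 6 h libraries, chosen after seeing the data, left the lost and gained counts at the other times as they were. The unknown depth limits every absence of a peak.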
